A study of Mus musculus with 8 samples.

Results

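The 7 genes described here, *Pdgfra*, *Cspg4*, *Lhfpl3*, *C1ql1*, *Cacng4*, *Emid1* and *Pnlip*, are progenitor identity genes of oligodendrocyte precursor cells (OPCs), and each was taken from a table of 23427 genes by its symbol. They were chosen by their measured levels over the days, so every difference from Day 0 given here for a member is a description with no test, and 2 of them, *Lhfpl3* and *Emid1*, had their highest mean on Day 1. The table held FPKM, fragment counts divided by transcript length and by the library's mapped fragments, of primary mouse OPCs at 4 times, Day 0 to Day 3, as they differentiated into oligodendrocytes (OLs), with 2 libraries a day numbered replicate 1 and replicate 2 and 8 libraries in all. All libraries came from wild-type C57BL/6J cells of the cortices of pups at postnatal day 7, with 3 pups pooled in an isolation. The day was counted from the change to a medium with the thyroid hormone T3 and without the growth factors, and no agent other than that medium separated the groups. The cells had been bound to plates carrying an antibody to PDGFRα, the protein of *Pdgfra*, after microglia and endothelial cells had been removed on other plates, so a high *Pdgfra* level on Day 0 was a condition of the sample.

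OPCs are the dividing cells of the OL lineage, and platelet-derived growth factor A, acting through PDGFRα, keeps them dividing and alive. As they leave the cell cycle and mature, they lose PDGFRα and the proteoglycan NG2, the protein of *Cspg4*, and make myelin proteins. *Pdgfra* and *Cspg4* are for this reason the usual markers of the progenitor state, while *Lhfpl3*, *C1ql1*, *Cacng4*, *Emid1* and *Pnlip* code for proteins with other roles that are also found at a high mRNA level in OPCs.

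The bases just before the start sites of the 3 members that fell furthest, and of *Lhfpl3*, whose FPKM was higher on Day 1 than on Day 0, are shown because their courses differed. Each run is the 250 bases before the RefSeq start (GRCm38.p6, plus strand), 5′ to 3′, at chr5:75152001-75152250 for *Pdgfra*, chr9:56864854-56865103 for *Cspg4*, chr19:58670115-58670364 for *Pnlip* and chr5:22745804-22746053 for *Lhfpl3*. Capitals mark the letters CANNTG (the E-box), ACAAAG (a SOX-type motif), GGGCGG (the GC box) and TATAAA on either strand. The windows of *Cspg4* and *Pnlip* overlap the gene spans given below, which are from GENCODE M21 and begin further upstream than the RefSeq start.

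Pdgfra: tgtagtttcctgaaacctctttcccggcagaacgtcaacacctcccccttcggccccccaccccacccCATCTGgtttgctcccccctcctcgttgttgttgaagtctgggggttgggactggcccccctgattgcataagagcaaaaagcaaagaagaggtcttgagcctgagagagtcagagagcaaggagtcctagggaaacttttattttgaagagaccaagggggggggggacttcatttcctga

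Cspg4: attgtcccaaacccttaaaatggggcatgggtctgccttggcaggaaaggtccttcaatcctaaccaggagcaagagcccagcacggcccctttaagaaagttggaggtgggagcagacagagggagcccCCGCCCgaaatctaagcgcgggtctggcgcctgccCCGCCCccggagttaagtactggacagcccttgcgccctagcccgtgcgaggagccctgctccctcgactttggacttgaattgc

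Pnlip: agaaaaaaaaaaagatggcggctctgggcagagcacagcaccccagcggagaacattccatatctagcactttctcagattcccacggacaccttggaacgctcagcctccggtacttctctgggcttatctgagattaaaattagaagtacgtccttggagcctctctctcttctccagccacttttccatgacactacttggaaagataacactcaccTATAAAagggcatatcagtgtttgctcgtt

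Lhfpl3: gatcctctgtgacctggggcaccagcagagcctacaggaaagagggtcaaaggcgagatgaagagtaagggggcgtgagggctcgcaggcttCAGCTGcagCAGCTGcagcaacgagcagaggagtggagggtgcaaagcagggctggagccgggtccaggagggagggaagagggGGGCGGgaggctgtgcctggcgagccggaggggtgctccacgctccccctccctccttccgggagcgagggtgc

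*Pdgfra* had 1 E-box in this window, *Cspg4* had 2 GC boxes, *Pnlip* had 1 TATAAA, and *Lhfpl3* had 2 E-boxes, both of the form CAGCTG, and 1 GC box. ACAAAG was found in none of the 4 windows. Of 32851 windows of the same length in the RefSeq table, 66.2% held CANNTG, 13% held CAGCTG, 16.5% held ACAAAG, 32.7% held GGGCGG and 12.4% held TATAAA. None of the motifs searched was shared by the 3 members that fell furthest. The table also held 2 windows of *Emid1*, one of them with 5 GC boxes, and 5 of the 7 members had an entry in it.

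Depth was read from the steps between low FPKM values and came to 960000 to 1530000 fragments per library. A single fragment of *Cspg4*, a long mRNA, was worth 0.0809 to 0.130 FPKM, and one of *C1ql1*, a short mRNA, 0.523 to 0.838 FPKM. Below 60 fragments, the FPKM of *Cspg4*, *C1ql1*, *Emid1* and *Pnlip* were whole multiples of 1 fragment within 0.036 of a fragment, at a transcript length fitted for this. That length was sought from 0.8 to 1.05 times the longest annotated transcript on 3 to 8 low values, so the match is no independent check. The fragments of these 4 members are given as whole numbers below 60, while higher values and those of the other 3 members are approximate. Depth was lowest on Day 3, at 1090000 and 960000 fragments. A floor of 3 fragments was used for folds against libraries at 0, smaller values stayed in the means, shares and tests, and counting intervals below cover counting error only, since fragments of amplified libraries are not independent molecules. In bulk libraries fewer cells of a type and less of an mRNA in each cell cannot be told apart.

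*Pdgfra* (chr5:75152292-75198215, plus strand, GRCm38) was the member with the highest FPKM on Day 0. The Day 0 libraries held 490.3 FPKM (replicate 1) and 396 FPKM (replicate 2), and the Day 1 libraries 78.2 and 11.2 FPKM. The Day 2 libraries held 28.8 and 5.39 FPKM and the Day 3 libraries 29.2 and 6.53 FPKM. Every later library lay below both Day 0 libraries, and replicate 2 lay below replicate 1 on each of the 4 days. The daily means were 443 ± 66.7 FPKM (SD, n = 2), 44.7 ± 47.4, 17.1 ± 16.6 and 17.9 ± 16.0. The share of the Day 0 mean left was 10.1% after 1 day and 3.86% after 2 days, and the 4.03% left at the end was 24.8-fold below Day 0. On the log2(FPKM + 1) scale, 65.4% of the whole change of replicate 1 and 87.8% of that of replicate 2 had taken place by Day 1. From Day 2 to Day 3 the level moved by 0.02 in replicate 1 and 0.24 in replicate 2 on that scale, both upward. The exons of *Pdgfra* overlap those of *Mir7025* on the same strand and of *Gm42802* and *Gm42803* on the other strand, and whether fragments were counted by strand is not given in the sources used here.

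*Cspg4* (chr9:56865033-56899870, plus strand) codes for NG2, a membrane proteoglycan that holds OPCs to matrix and to axons. Its FPKM in replicates 1 and 2 were 51.3 and 65.7 (Day 0), 5.06 and 3.21 (Day 1), 1.94 and 0.373 (Day 2), and 1.03 and 0.778 (Day 3). In fragments this was about 635 and 648 on Day 0 but 9 and 6 on Day 3. *Cspg4* was thus near its limit of measurement at the end of the course. The mean of Day 1 was 7.07% of that of Day 0, the mean of Day 2 was 1.97% and the mean of Day 3 was 1.54%, which was 64.9-fold lower. The 2 libraries of Day 0 lay far above all others. On Day 0 replicate 2 was the higher of the 2 replicates, and on the 3 later days it was the lower.

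*Pnlip* (chr19:58652498-58681788, plus strand) codes for pancreatic lipase, an enzyme that splits dietary triglycerides and is best known from the exocrine pancreas. It was at 93.4 FPKM (about 214 fragments) in replicate 1 and 26.9 FPKM (49 fragments) in replicate 2 on Day 0. On Day 1 it was at 7.13 FPKM (13 fragments) in replicate 1 and listed at 0 in replicate 2. On Day 2 it was at 1.66 FPKM (3 fragments) and 0, and on Day 3 it was listed at 0 in both. No other member reached 0 in both libraries of a day. Against a floor of 3 fragments in each Day 3 library, the mean was at least 30.4-fold lower on Day 3 than on Day 0, at least 50.6-fold in replicate 1 and at least 12.8-fold in replicate 2. The 2 Day 0 libraries differed 3.48-fold, more than those of any other member measured in both. Of the 8 related genes listed, which are lipase genes and the colipase gene *Clps*, 5 were at 0 in every library. Only *Liph* could be tested, at 2.55 and 2.79 FPKM on Day 0 and 0.482 and 0 on Day 3.

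*Cacng4* (chr11:107732357-107794557, minus strand) codes for TARP γ-4, an auxiliary subunit of AMPA-type glutamate receptors. It fell in smaller steps than the 3 members above. Its FPKM were 134 and 117 (Day 0), 62.1 and 45.3 (Day 1), 37.5 and 28.2 (Day 2), and 33.5 and 15.9 (Day 3). In both replicates each day lay below the day before, and the mean went to 42.9%, 26.3% and 19.7% of that of Day 0. By Day 1, 55.7% of the log2 change of replicate 1 and 48.1% of that of replicate 2 had taken place. About 53 fragments were left in the lowest library, so the gene was measured throughout.

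*C1ql1* (chr11:102939264-102946688, minus strand) codes for a secreted C1q-domain protein that binds the adhesion receptor BAI3 at synapses. Its FPKM were 12.03 and 9.16 (Day 0), 3.27 and 1.26 (Day 1), 1.98 and 4.22 (Day 2), and 5.15 and 1.68 (Day 3). These rested on 23 and 14 fragments on Day 0 and on 2 to 7 fragments in each later library. All later libraries were below Day 0, but the order of Day 1, Day 2 and Day 3 differed between the replicates. The share left on Day 3 was 42.8% in replicate 1, with a 95% counting interval of 15.5% to 103%, and 18.3% in replicate 2, with an interval of 2.02% to 79.6%. At this depth no order among the 3 later days was detectable.

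*Lhfpl3* (chr5:22746059-23275597, plus strand) codes for a membrane protein of the LHFPL family with several membrane-spanning segments. Unlike the 5 members above, it had a higher FPKM on Day 1 than on Day 0 in both replicates. Its FPKM were 165 and 198 (Day 0), 231 and 275 (Day 1), 219.5 and 160.1 (Day 2), and 128 and 66.6 (Day 3). Both Day 1 libraries lay above both Day 0 libraries, the Day 2 libraries overlapped those of Day 0, and both Day 3 libraries lay below them. In percent of the Day 0 mean, the later means were 139%, 104% and 53.6%. Within replicates the Day 3 share was 77.4% (95% counting interval 68.6% to 87.0%) in replicate 1 and 33.6% (28.6% to 39.3%) in replicate 2. *A930003O13Rik*, whose exons overlap those of *Lhfpl3* on the other strand, was at 3.69 to 14.2 FPKM in the table.

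*Emid1* (chr11:5106265-5152257, minus strand) codes for a secreted protein with an EMI domain and collagen-type repeats. Its FPKM were 1.36 and 0 (Day 0), 0 and 1.64 (Day 1), 0 and 0.393 (Day 2), and 0 and 0.546 (Day 3). No library held more than 4 of its fragments, and every later day overlapped Day 0. Neither a fall of *Emid1* nor the lack of one was detectable at this depth.

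**Figure D1:**
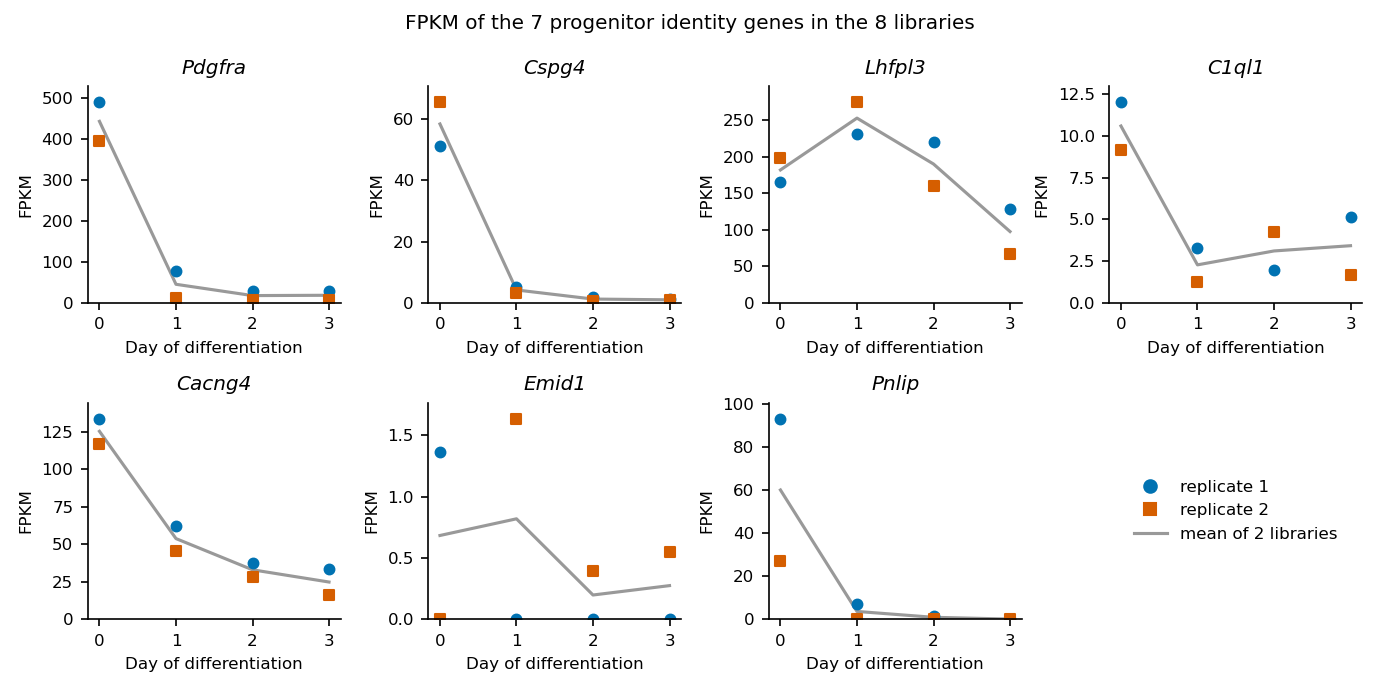
FPKM (linear axes from 0, each with its own range) of the 7 progenitor identity genes against the day of differentiation, with a circle for replicate 1, a square for replicate 2 and a grey line through the mean of the 2 libraries. *Pdgfra*, *Cspg4* and *Pnlip* drop between Day 0 and Day 1, *Cacng4* declines over all days, *Lhfpl3* peaks on Day 1 at a mean of 253 FPKM, and *Emid1* stays under 2 FPKM.

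The members thus differed in speed and in extent, and the 2 did not give the same order. On Day 1 *C1ql1*, on few fragments, was at 21.4% of the Day 0 mean and *Cacng4* at 42.9%, an order that had turned by Day 3. In order of the percent left on Day 3, *Cspg4* came first at 1.54%, then *Pdgfra* at 4.03%, *Cacng4* at 19.7%, *C1ql1* at 32.2% and *Lhfpl3* at 53.6%. *Emid1* could not be placed, and *Pnlip*, at 0 fragments but bounded only at 30.4-fold below Day 0, could not be placed against *Cspg4* and *Pdgfra*. Neighbours in that order were not all separated. The within-replicate shares of *Cspg4* (2.00% and 1.18%) overlapped those of *Pdgfra* (5.96% and 1.65%). Those of *Cacng4* (25.1% and 13.6%) overlapped those of *C1ql1* (42.8% and 18.3%), which in turn overlapped those of *Lhfpl3* (77.4% and 33.6%). *Pdgfra* and *Cspg4* did not overlap *Cacng4*. The median share left over the 7 members was 21.4%, 26.3% and 19.7% on the 3 later days, with *Emid1* and the zeros of *Pnlip* among the values. It was 14.9%, 14.9% and 11.6% as the mean of the ratios within replicate numbers, where *Emid1*, at 0 in replicate 2 of Day 0, dropped out. Without replicate 1 of Day 1 it was 11.8% on Day 1. On Day 2 it was 16.2% and 14.4% without replicate 1 or 2 of Day 0 and 6.50% without replicate 2 of Day 2. On Day 3 it was 12.8% without replicate 1 of Day 0, and 12.7% and 6.59% without replicate 1 or 2 of Day 3. *Emid1* also dropped out of the values without replicate 1 of Day 0, so part of their shift is a change of the set.

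The members' mix changed with these unequal falls. Because FPKM is per length, levels can be set side by side: *Pdgfra* made up 50.4% of the members' summed mean FPKM on Day 0 and 12.4% on Day 3, and *Lhfpl3* 20.6% and 67.3%. The FPKM of *Lhfpl3* was 0.337 and 0.50 of that of *Pdgfra* on Day 0 in replicates 1 and 2, and 4.38 and 10.2 times that of *Pdgfra* on Day 3. *Cacng4* passed *Pdgfra* on Day 1 in replicate 2, at 4.05 times its FPKM, and on Day 2 in replicate 1, at 1.30 times. The FPKM of *Cspg4* stayed below that of *Pdgfra* in all 8 libraries, at 0.0351 to 0.286 of it.

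**Figure D2:**
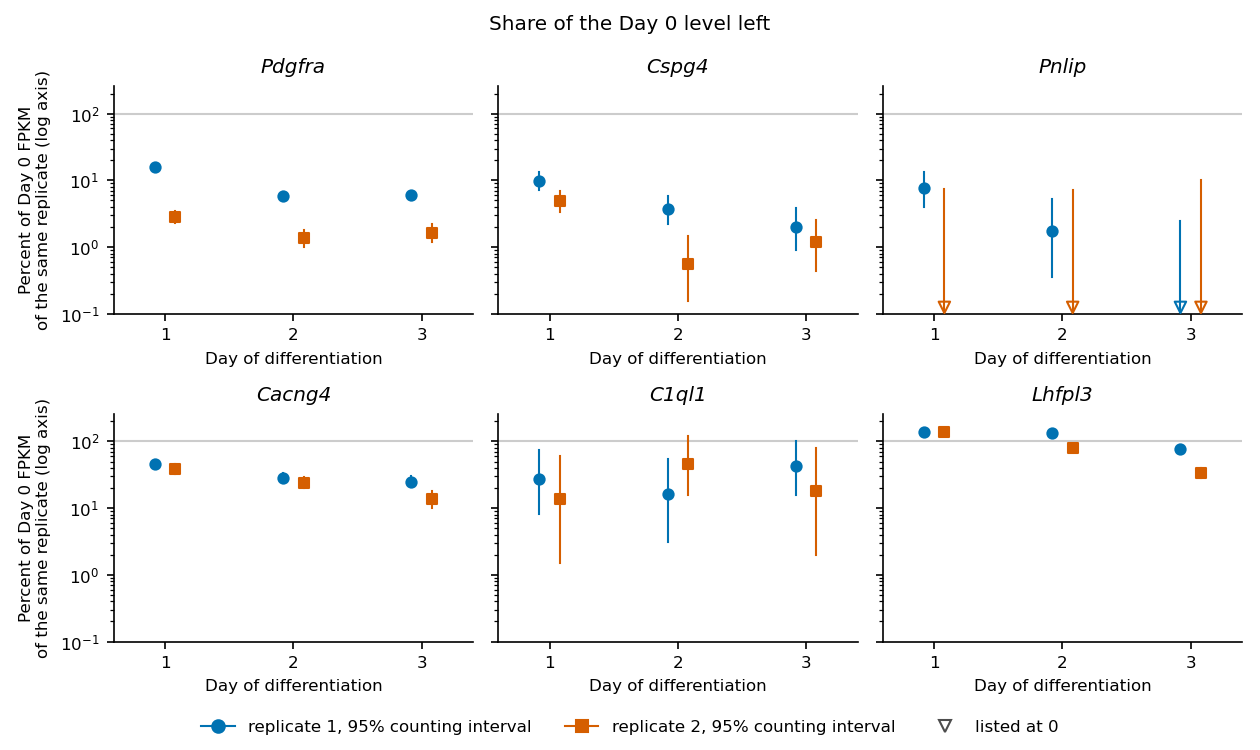
Percent of the Day 0 FPKM of the same replicate left on Days 1 to 3 (log axis) for 6 members, with circles for replicate 1, squares for replicate 2, bars for the 95% counting interval, open triangles at the foot of the axis for libraries at 0 and a grey line at 100%. Replicate 2 of *Pdgfra* lies below replicate 1 on all 3 days, at 2.83% against 16.0% on Day 1, and *C1ql1* has the widest bars among members seen in every library.

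How the members moved after Day 1 was read from Day 2 against Day 1. They were chosen by their levels over the days, so their adjusted p for this step are descriptions and no test of the members. Across 12208 genes, 1.73% were called lower and 2.16% higher on Day 2 (limma, adjusted p under 0.05), and none of the 7 members was called. *Cspg4* had a difference of -1.33 (SE 0.40) on the log2(FPKM + 1) scale with an adjusted p of 0.106, negative in 2 of 2 replicates. *Cacng4* had -0.69 (SE 0.32, adjusted p = 0.254), also in 2 of 2. *Pdgfra* had -1.17 (SE 1.0, adjusted p = 0.528), also negative in 2 of 2, beside replicates that stood far apart on both days. Without replicate 1 of Day 1, which left only the lower replicate 2 on that day, the sign of *Pdgfra* turned, to 0.18, and *Pnlip* went from -0.81 to 0.70. With a median ratio scaling the split of all genes called was 104 lower and 371 higher instead of 211 and 264, and no member was called there. The split was 0 and 0 when only the 2 days were fitted and 436 and 367 with the replicate block. Leaving out any single library of Days 0 to 2 gave 0 to 101 lower and 11 to 140 higher, the fewest without replicate 2 of Day 2. From Day 2 to Day 3, 0.295% of genes were called and no member, and that step too shares libraries with the choice of the members.

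The largest replicate difference among the members was that of *Pdgfra*. Over the 4 days replicate 2 minus replicate 1 was -1.81 (SE 0.33) on the log2(FPKM + 1) scale (limma with the day as a factor, adjusted p = 0.0461), against 1.05% of all genes called in that comparison, 128 genes that became 40 to 84 when any 1 library was left out. *Pdgfra* was the only member called. The members were chosen by their levels in these same libraries, so their adjusted p between replicates are descriptions and no test. The call of *Pdgfra* was narrow, with an adjusted p above 0.05 under 11 of 15 alternatives. Leaving out any single library of Day 1, Day 2 or Day 3 gave an adjusted p of 0.164 to 0.276, and leaving out either Day 0 library gave 0.00925 and 0.00989. Replicate 1 exceeded replicate 2 by 1.24-fold on Day 0 and by 6.99-fold, 5.35-fold and 4.47-fold on the later days. The difference after Day 0 minus that on Day 0 was -2.0 (SE 0.32) on the log2 scale. No gene passed adjustment in that comparison, 0% of 12208 with 387 at an unadjusted p under 0.05, and *Pdgfra* had an adjusted p of 1.00 there.

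On the same scale *Pnlip* had a replicate difference of -1.55 (SE 0.42, adjusted p = 0.180), negative on 3 of 4 days, and *Cacng4* one of -0.52 (SE 0.14, adjusted p = 0.181), negative on 4 of 4. *Cspg4* (-0.37), *C1ql1* (-0.42) and *Lhfpl3* (-0.22) had adjusted p from 0.633 to 0.714. The sign was negative for 6 of 7 members, with *Emid1* the exception at 0.32. The median over all genes was negative too, at -0.05, and a shared sign of the members was not tested. The summed FPKM of the 7 members went from 948 to 197 in replicate 1 and from 812 to 92.0 in replicate 2 between Day 0 and Day 3.

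**Figure D3:**
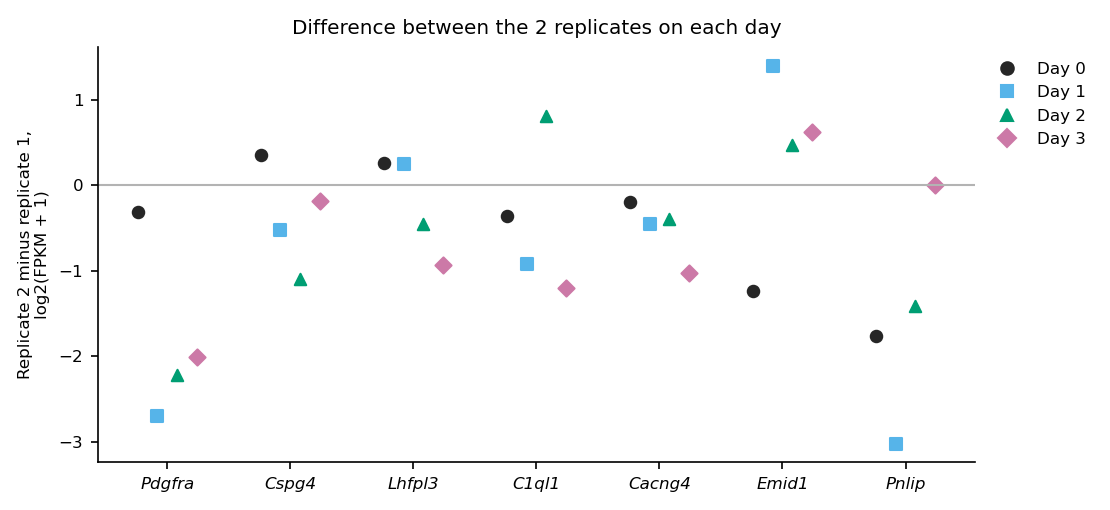
Replicate 2 minus replicate 1 in log2(FPKM + 1) for each member, with a marker for each day and a grey line at 0. *Pdgfra* lies at -0.31 on Day 0 and between -2.70 and -2.0 on the later days, while the points of *Lhfpl3* and *C1ql1* lie on both sides of 0.

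Markers of other cells were measured beside the members, because mural cells also express *Cspg4*, fibroblast-like cells express *Pdgfra*, and astrocytes arise in such cultures. The pericyte receptor *Pdgfrb* was at 0 to 0.339 FPKM and the fibroblast gene *Dcn* at 0 in every library. Summed over each list, 8 mural markers (4 of them at 0 in every library) came to 0.112 to 0.439 FPKM in replicate 1 and 1.37 to 2.30 in replicate 2, 5 fibroblast markers (2 at 0) to 0 to 0.959 FPKM, 5 endothelial markers (3 at 0) to 0 to 0.428 FPKM and 6 microglia markers (5 at 0) to 0 to 2.51 FPKM. The part of such cells in the levels of *Pdgfra* and *Cspg4* was not tested.

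Astrocyte markers were not near 0 in sum and went with the replicate number. Their sum was 137 to 176 FPKM in replicate 1 and 438 to 992 FPKM in replicate 2, with 7 of 10 called higher in replicate 2, where 0.680% of all genes were, and none at 0 in every library. In replicate 1 *Aldoc* made up much of the sum, at 57.5 to 116 FPKM, while *Gja1* was at 0 to 0.295 FPKM. Both were picked after their values were seen. From Day 0 to Day 3 only *Sox9* of the 10 was called. It fell from 27.5 and 69.0 to 4.42 and 9.82 FPKM, where 26.3% of all genes were called lower. *Gfap*, an astrocyte filament gene, was at 14.7, 30.4, 27.3 and 45.5 FPKM from Day 0 to Day 3 in replicate 1 and at 154, 317, 409 and 603 FPKM in replicate 2 (log2 difference 3.55, SE 0.12, adjusted p = 1.03e-05, limma). The comparison of Day 3 with Day 0 had no replicate term, so this difference widened its SE, to 1.75 for *Gfap*. The lack of a call there thus does not show that the other astrocyte markers stayed level. *Pdgfra* was lower in the replicate in which these genes were higher, and their part in that difference was not tested. Of 8 neuron markers, 2 were at 0 in every library and 3 could be tested. Only *Tubb3*, a neuronal tubulin gene, was called between replicates, where 1.05% of all genes were. It was lower in replicate 2, with 60.2 FPKM in replicate 1 and 20.8 in replicate 2 at the start and 231 and 113 at the end. The others tested, *Snap25* (2.15 and 8.46 FPKM) and *Syt1* (2.05 and 1.72 FPKM), were low on Day 0 and not called. All 5 markers of the committed stage between OPC and OL were called higher on Day 1 than on Day 0, where 5.04% of all genes were. *Gpr17* went from 232 and 279 FPKM on Day 0 to 454 and 449 FPKM on Day 1. From Day 0 to Day 3 *Enpp6* and *Tcf7l2* rose and *Gpr17* fell, the last not called with median ratio scaling, while *Bcas1* and *Bmp4* were not called. Beside them 12% of all genes were called higher and 26.3% lower. Myelin markers went from a sum of 1074 and 787 FPKM to one of 18960 and 26850 FPKM in the same span. *Mbp* reached 8753 and 11945 FPKM, and *Mobp* went from 0.407 and 2.36 to 432 and 1227 FPKM.

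**Figure D4:**
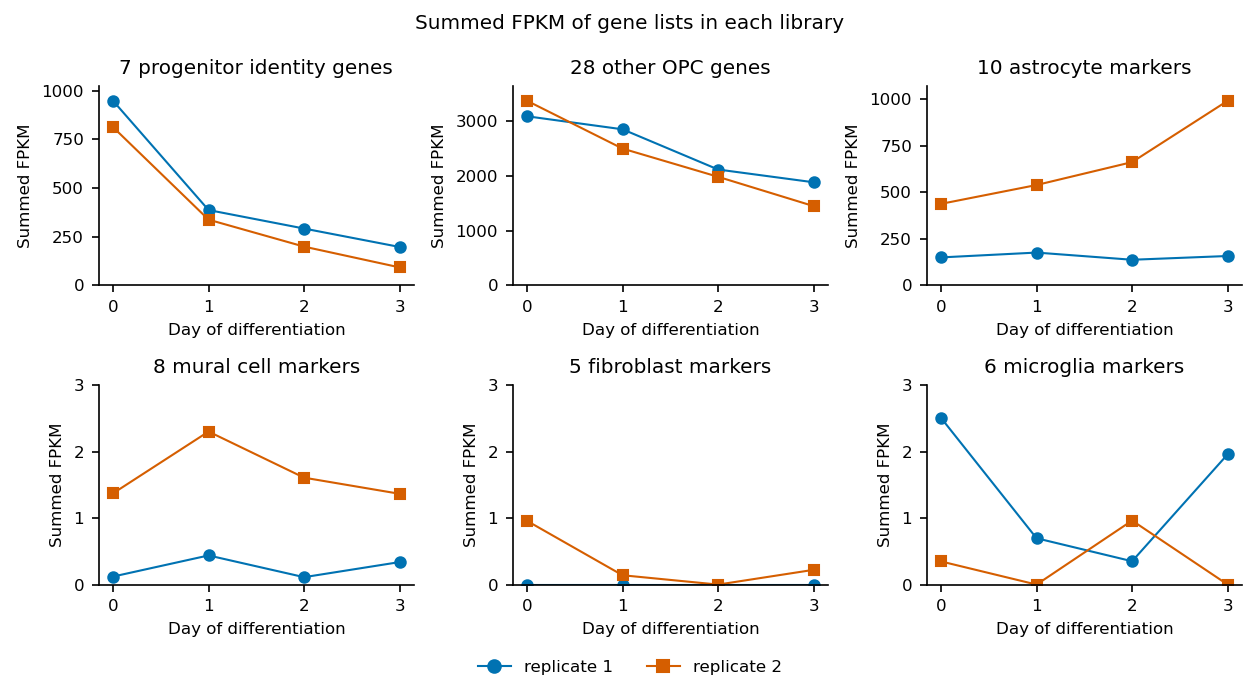
Summed FPKM in each library against the day for the 7 progenitor identity genes, 28 other OPC genes and 4 marker lists, with circles for replicate 1 and squares for replicate 2. The sum of the members falls in both replicates, astrocyte markers end at 992 FPKM in replicate 2 and 158 in replicate 1, and mural, fibroblast and microglia markers stay under 3 FPKM.

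Other genes of the OPC state were read from a list of 28. From Day 0 to Day 3, 18 of the 28 fell and none rose, where 26.3% of all genes were called lower and 12% higher. With the other scalings 18 were again called lower, but 1 (same sum), 3 (median ratio) and 2 (quantile) were called higher. The list's median change was -1.62 and that of all genes was -0.31 on the log2(FPKM + 1) scale. The 7 members had a median of -2.38 there, and relative to the median of all genes *Pdgfra* stood at -4.56, *Cspg4* at -4.65, *Pnlip* at -5.37, *Cacng4* at -2.07, *C1ql1* at -1.19, *Lhfpl3* at -0.65 and *Emid1* at 0.01. A median ratio scaling moved the median of all genes to -0.04 and the calls from 3207 lower and 1460 higher to 2047 and 2134, and no member changed sign under it.

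On the log2(FPKM + 1) scale the largest falls of the list were those of *Lnx1*, an E3 ubiquitin ligase gene, and *Dll3*, a gene of the Notch ligand family. *Lnx1* went from 38.8 and 57.5 FPKM on Day 0 to 3.54 and 0 on Day 3 (log2 change -4.50, SE 0.68, adjusted p = 0.00146). *Dll3* went from 27.1 and 49.0 FPKM to 2.54 and 0 (-4.32, SE 0.78, adjusted p = 0.00338). Both kept 3.68% and 3.34% of their Day 0 means, near the 4.03% of *Pdgfra*, and *Pcdh15*, named after its values were seen, kept 3.42%.

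On Day 1 the list was mixed, with 12 genes called lower and 5 higher against 7.56% and 5.04% of all genes. With quantile normalization the calls over all genes were 833 lower and 836 higher instead of 923 and 615. The 5 that rose were the transcription factor genes *Nkx2-2* and *Sox10*, the sialidase gene *Neu4*, the tenascin gene *Tnr* and *Luzp2*. Without replicate 1 of Day 0, replicate 2 of Day 0 or replicate 2 of Day 1, 5 of the list were called lower. At Day 1 the list kept a median of 61.3% of its Day 0 level, from 10.3% to 581%. None of the 28 was under 10%, but *Cspg5* (10.3%) and *Cdo1* (10.6%), named after their values were seen, were close to it. *Cspg4* and *Pnlip* were under 10% and *Pdgfra* was at 10.1%, and these members had been chosen by their levels over the days. By Day 3 the median was 25.2%, and 5 of the 28 were under 10%. *Lhfpl3*, at 139% on Day 1 and 53.6% on Day 3, can be set beside *Serpine2* (114% and 35.7%), which was picked after its values were seen and was also higher on Day 1 in both replicates.

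From Day 1 to Day 2, 4 of the 28 fell, namely *Pcdh15*, *Ptprz1*, *Cdo1* and *Nkx2-2*, where 1.73% of all genes were called lower, and with the replicate block 7 of the list were called. *Cdo1* was not called with median ratio scaling or quantile normalization (adjusted p = 0.0604 and 0.0703, limma). Leaving out either library of Day 0 or of Day 1, or replicate 2 of Day 2, left 0 or 1 called. *Ptprz1*, a receptor-type phosphatase gene of OPCs, fell from 138 and 111 FPKM to 59.1 and 39.7 (adjusted p = 0.0206). Between the replicates *Rlbp1* was called lower, though not with median ratio scaling (adjusted p = 0.0529, limma), and *Matn4* higher in replicate 2. *Matn4* was at 0 in every replicate 1 library and at 3.33 to 11.7 FPKM in replicate 2.

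**Figure D5:**
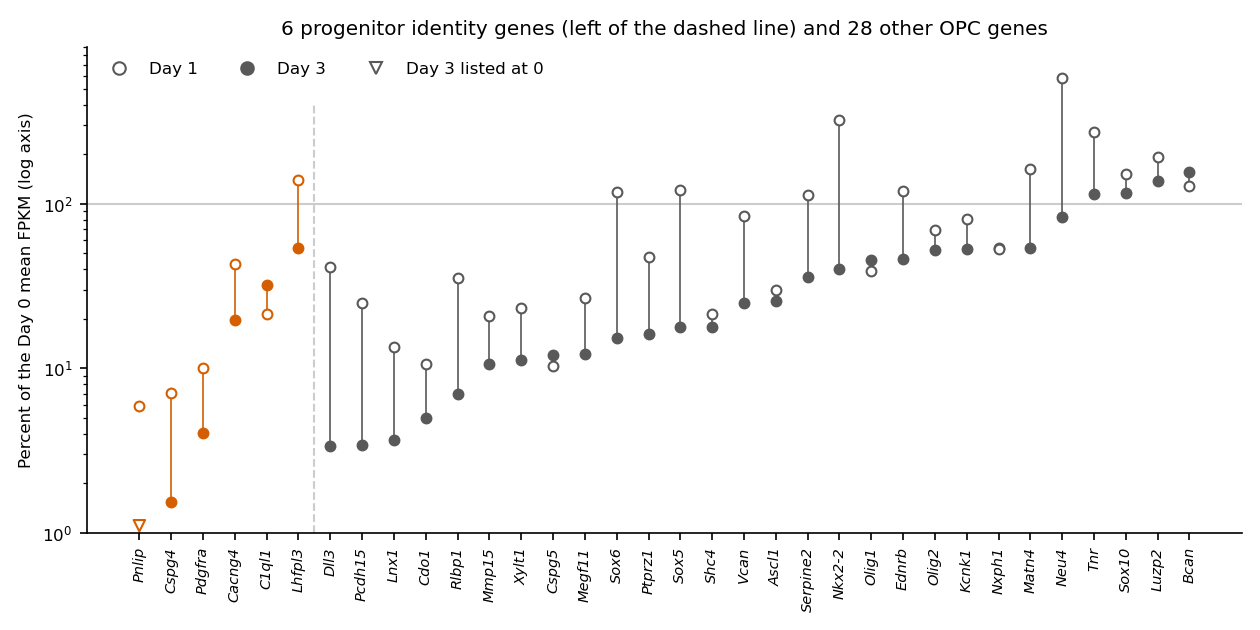
Percent of the Day 0 mean FPKM (log axis) on Day 1 (open circles) and Day 3 (filled circles) for 6 members in orange and 28 other OPC genes in grey, ordered by their Day 3 value, with a grey line at 100% and a triangle for *Pnlip*, at 0 on Day 3. *Pnlip*, *Cspg4* and *Pdgfra* have Day 1 values of 5.93% to 10.1%, and the lowest Day 1 value of the other OPC genes is 10.3%.

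The partners of each member were read from lists of related genes. Of the ligands and the second receptor of PDGF, only *Pdgfa* and *Pdgfc* could be tested. *Pdgfa*, the ligand of PDGFRα, rose from 10.2 and 7.205 FPKM to 36.0 and 36.9 within 1 day (log2 change 1.96, SE 0.28, adjusted p = 0.00295). The Day 2 libraries held 42.7 and 67.1 FPKM and the Day 3 libraries 17.1 and 11.3 FPKM. Its rise came on the day on which *Pdgfra* fell. Of 19 genes that carry the receptor's signal, 6 fell and 2 rose from Day 0 to Day 3, near the 26.3% and 12% of all genes, with a median of -0.23 (-0.31 over all genes), and under a median ratio scaling 5 fell and 5 rose, with a median of 0.02.

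Among these 19, the kinase gene *Src* went from 35.9 and 30.1 to 8.06 and 5.13 FPKM and the adaptor gene *Shc4*, which is also in the list of 28, from 30.6 and 32.5 to 8.18 and 3.03 FPKM. The phosphatase gene *Ptpn11*, which codes for SHP2, went up from 49.5 and 48.3 to 140 and 116 FPKM, and the docking protein gene *Gab1* from 46.3 and 50.8 to 76.4 and 101 FPKM. The receptor gene thus fell to a lower share than any of these signalling genes, of which *Shc4* kept 17.8%. Of 6 tested genes whose proteins bind or cut NG2, 1 fell, the protease gene *Adam10*, from 57.7 and 51.9 to 32.8 and 25.5 FPKM, against 26.3% of all genes. With a median ratio scaling 2 were called higher.

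Around *Cacng4*, 5 of 9 tested AMPA receptor and TARP genes fell and 2 rose from Day 0 to Day 3, against 26.3% and 12% of all genes. Of the 5, *Gria4*, named after its values were seen, was not called with median ratio scaling (adjusted p = 0.0672, limma). The subunit gene *Gria3* went from 29.4 and 44.7 to 4.41 and 4.82 FPKM, and the auxiliary subunit gene *Cnih2* from 10.5 and 15.8 to 2.96 and 2.53. *Gria1* went from 1.14 and 1.42 to 5.98 and 4.91 FPKM and *Cnih3* from 0.258 and 0.323 to 1.09 and 3.44. The sister TARP gene *Cacng7* had 102 and 90.6 FPKM at first and 76.4 and 60.5 on Day 3, so that it stood above *Cacng4* at the end of the course. *Cacng7* was picked after its values were seen.

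Of the relatives of *Lhfpl3*, 1 of 3 tested rose, *Lhfpl2*, from 11.1 and 8.997 FPKM on Day 0 to 44.9 and 19.7 on Day 3 (12% of all genes rose), and 2 of the 5 listed were at 0 in every library. Of 4 tested relatives and receptors of *C1ql1*, the receptor gene *Bai3* fell from 13.6 and 15.2 to 6.81 and 3.59 FPKM and *Cbln1* from 4.75 and 2.79 to 0.785 and 0, against 26.3% of all genes, and *Cbln1* was not called with quantile normalization (adjusted p = 0.0541, limma). None of the EMI domain relatives of *Emid1* reached the level needed for the test, with a summed 0.417 to 1.78 FPKM in each library.

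Among 8202 genes at 10 FPKM or more in at least 1 library, the gene whose profile over the 8 libraries was most like that of *Cspg4* was *Hip1* (Pearson r = 0.995). For *Pnlip* it was the DNA repair gene *Rad50* (r = 0.988), for *Cacng4* the chromatin gene *Vps72* (r = 0.999), for *Lhfpl3* the synaptic adhesion gene *Nlgn1* (r = 0.988), for *C1ql1* the heterochromatin gene *Cbx1* (r = 0.973) and for *Emid1* *Rnf215* (r = 0.974). The mean of the 7 standardized profiles was most like those of *Oaz1*, *Dck*, *Eif4a3*, *Src* and *Mast2* (r = 0.990 to 0.996). These are descriptions over 8 libraries that share days and cultures, drawn from 8202 genes, and the match of *Emid1* rests on counts of 0 to 4 fragments.

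The profiles of the members were likewise unequal in likeness to one another. *Pdgfra* had r = 0.938 with *Cspg4*, 0.951 with *Pnlip* and 0.933 with *Cacng4*, but 0.801 with *C1ql1*, 0.307 with *Lhfpl3* and -0.08 with *Emid1*. *Lhfpl3* had its highest r among the members with *Cacng4*, at 0.561. All are on log2(FPKM + 1) over the 8 libraries.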

How the data were processed

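mRNA of primary mouse OPCs on Days 0 to 3 was measured in 8 libraries. Stranded libraries were read as 75-nt pairs on a MiSeq and processed by the authors with OmicSoft ArrayStudio, and the authors deposited FPKM per gene, with replicates not pooled. Per the labels the build was mm10. The aligner, the gene model and any further normalization are not given in the sources used here. The labels and the methods name different culture media and RNA kits.

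The members and gene lists were chosen with earlier results of these data known. The 12208 genes that reached 1 FPKM in 2 or more libraries, all 7 members among them, were tested on log2(FPKM + 1), a scale that understates changes of low genes, with limma 3.58.1 in R 4.3.3 (eBayes with a trend) on all 8 libraries, with the day as a factor and, for replicate differences, the replicate number as a term. Calls had a Benjamini-Hochberg adjusted p under 0.05. The authors' DESeq2 needs counts and was not used. The fit was tested on simulated data. The replicates are described as independent, but the labels do not say which libraries share an isolation, so p-values measure only the spread between these libraries. Same-numbered libraries deviated together (r = 0.164 to 0.285 between days over 12208 genes), so the numbers were taken as pairs for shares within replicates. The day comparisons reported were fitted without a replicate term, and the fit with the replicate block was an alternative. With that block 3551 genes were lower and 1617 higher from Day 0 to Day 3, where 3207 and 1460 are reported. Other steps used Python 3.11.15, numpy 2.4.6, pandas 2.3.3 and scipy 1.17.1.

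Depth was estimated as 960000 to 1530000 fragments, at which 47.8% to 57.0% of low values were whole within 0.03. Intervals of shares are exact (Clopper-Pearson) binomial intervals on fragments at 95%, and the floor is 3 fragments. Positions are from GENCODE M21 (GRCm38), promoter windows from RefSeq. The text names all members, the genes most like them by Pearson r (that for *Pdgfra* is not reported here), the 2 largest rises and falls among the called genes of each list, and *Gfap*, *Pdgfrb* and *Dcn*, with other genes named as picked after their values were seen or as full lists of calls. Alternatives were a pseudocount of 0.1, no filter (15267 genes), FPKM of at least 10 in 1 library (8202 genes), 3 scalings, eBayes without a trend, only the 2 days compared, the replicate block, and each library left out.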

Additional observations from a re-analysis of the deposited data

How the results depend on the processing

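Of 234 alternative values of the counts and median shares, 150 stayed within 1.5 times the reported count or 1 SD of the replicate medians and 84 did not. The causes were not tested. With median ratio scaling, 2047 genes were lower from Day 0 to Day 3 (3207 reported) and 104 lower from Day 1 to Day 2 (211 reported). Without a filter, 93 were lower and 154 higher (264 reported) on Day 2, 2 of the list of 28 (4 reported) were lower there, 0 genes were called from Day 2 to Day 3 (36 reported) and 59 between replicates (128 reported). Without the trend these values were 39, 82, 0, 0 and 77. Quantile normalization gave 131 lower on Day 2, and a pseudocount of 0.1 gave 8 called from Day 2 to Day 3 and 72 between replicates. A fit of only the 2 days compared gave 406 genes higher on Day 1 (615 reported), and 0 lower, 0 higher, 0 of the list and 0 called in the later steps. With the replicate block, 436 genes and 7 of the list were lower on Day 2 and 163 genes were called from Day 2 to Day 3. No call of a member changed on Day 2 against Day 1 with that block. The replicate difference after Day 0 against that on Day 0 gave 1 gene with the filter of 10 FPKM and 1 with quantile normalization (0 reported), and it could not be fitted without a Day 0 library. The median share left was 21.9% on Day 3 with the same sum, and 31.8% on Day 2 and 24.4% on Day 3 with median ratio scaling. As the mean of the ratios within replicate numbers it was 14.9%, 14.9% and 11.6% on Days 1 to 3, with *Emid1* dropped out.

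Leaving out 1 library gave 1799 to 3108 genes lower and 965 to 1440 higher on Day 3 against Day 0, 359 to 958 lower and 216 to 627 higher on Day 1 against Day 0, with 5 to 12 of the list lower, 0 to 224 lower and 11 to 221 higher on Day 2 against Day 1, with 0 to 5 of the list lower, 0 to 223 called from Day 2 to Day 3 and 40 to 84 between replicates. It gave median shares of 11.8% to 21.4% on Day 1, 6.50% to 26.3% on Day 2 and 6.59% to 19.7% on Day 3. *Emid1* dropped out of those without replicate 1 of Day 0.

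Of 312 alternative values of the members, 17 turned in sign, none of them for a member called, and 11, all of *Pdgfra* between replicates, passed to an adjusted p above 0.05. On Day 2 against Day 1, leaving out 1 library gave log2 differences of -2.52 to 0.18 for *Pdgfra*, -2.32 to 0.70 for *Pnlip*, -0.12 to 0.81 for *C1ql1* and -1.16 to 0.24 for *Emid1*, with *Pdgfra* and *Pnlip* turned without replicate 1 of Day 1. Between replicates it gave -0.38 to 0.018 for *Lhfpl3* and -0.045 to 0.84 for *Emid1*. The replicate difference after Day 0 against that on Day 0 ran from -0.46 to 1.06 for *Pnlip* and from -0.70 to 0.30 for *C1ql1*, and it was -1.64 for *Pnlip* with a pseudocount of 0.1 and 0.040 for *C1ql1* with quantile normalization. Depth limits *Emid1*, *C1ql1* and the later days of *Pnlip* and *Cspg4*, which rest on a few fragments.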
